A study of Mus musculus with 7 samples.

Results

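Fibroblast growth factor (FGF) genes and the genes that carry or restrain FGF signals through ERK were examined in C3H10T1/2 cells exposed to purmorphamine. The rule that defines the members reads gene symbols and no expression values, though it was chosen with earlier results of these data known. They comprised the numbered Fgf genes, Fgfr1 to Fgfr4 and Fgfrl1, Fgfbp1 and Fgfbp3, the Sprouty (Spry) and Spred genes, every Dusp gene with a number, Etv1, Etv4 and Etv5, and Frs2, Frs3, Il17rd and Klb. The gene table held 55 of them among 18468 genes, and 40 had enough reads to be tested. C3H10T1/2 is a mouse line of mesenchymal, fibroblast-like cells, used here at no more than 10 passages. Cells of all 7 libraries went without serum for 12 h before treatment and throughout it, so ligands supplied by serum were withheld from both groups. The 4 treated libraries, numbered 5 to 8, came from cells given 2 µM purmorphamine for 48 h, a compound that switches on Smoothened, the signal transducer of the Hedgehog pathway. The comparison group had 3 libraries, numbered 2 to 4, from cells given 0.02% DMSO as vehicle for the same time. RNA was sequenced after removal of ribosomal RNA, and reads on the sense strand were counted for each gene.

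FGF ligands bind tyrosine kinase receptors together with heparan sulfate, and the docking protein Frs2 then connects the receptor to Ras, Raf, MEK and ERK. Active ERK raises transcription of its own inhibitors, among them Sprouty and Spred proteins and the phosphatase Dusp6, and of the PEA3 factors Etv1, Etv4 and Etv5, so these transcripts serve as a readout of FGF signaling in many embryonic tissues. In skeletal mesenchyme, FGF and Hedgehog signals together govern growth and differentiation of cartilage and bone.

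Library totals were nearly equal, from 14337225 to 14342154 reads, after the authors had resampled reads to equalize the libraries. Reads of Gli1, a direct Hedgehog target, rose from 10.0 ± 2.65 (SD, n = 3) with vehicle to 2770 ± 295 (SD, n = 4) with purmorphamine, and those of Ptch1, the Hedgehog receptor, rose from 521 ± 15.1 to 10923 ± 475. All 10 mesenchymal markers examined were testable, of which 4 rose (Ly6a by 2.04-fold and Pdgfra by 1.69-fold among them), 3 fell (Vim by 1.95-fold) and 3 did not pass the test. Over all tested genes, 62.5% passed. Of 12 markers of other cell types, 8 were in the table and 3 were testable. Their summed reads were 29 to 47 with vehicle and 159 to 174 with purmorphamine. The epithelial cadherin Cdh1 rose from 14 to 21 reads to 110 to 135, the endothelial cadherin Cdh5 rose from 0 reads in every vehicle library to 21, 26, 22 and 24, and the macrophage marker Cd68 had 13 to 16 and 10 to 18 reads. The endothelial markers Pecam1 and Kdr did not rise with Cdh5. Pecam1 had 1 to 5 reads with vehicle and 3 to 5 with purmorphamine, and Kdr had 0 to 4 and 1. Krt14, Ptprc and Alb had at most 1 read in any library. The part of these markers in the members' values was not tested. In bulk RNA of this kind, fewer cells of a type and less RNA per cell cannot be told apart. Nothing in the labels says that the libraries came from separate cultures, so p-values measure the spread between these libraries, which may be technical.

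Purmorphamine was accompanied by lower reads for every receptor that could be tested, higher reads for most Sprouty and Spred genes, lower reads for most MAP kinase phosphatases, and a split among the PEA3 factors. At an adjusted p under 0.2 (edgeR quasi-likelihood test, Benjamini-Hochberg over 12388 genes), 13 of the 40 tested members were higher with purmorphamine and 16 were lower. Those shares, 32.5% and 40.0%, stand beside 31.4% and 31.1% of all tested genes, so the count of higher members was near the background. In all 72.5% of the tested members were called, against 62.5% of all genes. A change of at least 1.5-fold was found for 4 higher and 9 lower members, where 7.89% and 7.56% of all genes passed the same limits. The 13 members past that limit were 32.5% of those tested, beside 15.4% of all genes. The median log2 fold change of the tested members was -0.09, beside 0.0038 over all genes, and the median size of the change regardless of direction was 0.45, beside 0.20. Reads did not overlap between the groups for 24 tested members, 10 higher (29.1% of all genes) and 14 lower (20.4% of all genes), or 60.0% beside 49.5% for both directions together.

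**Figure D1:**
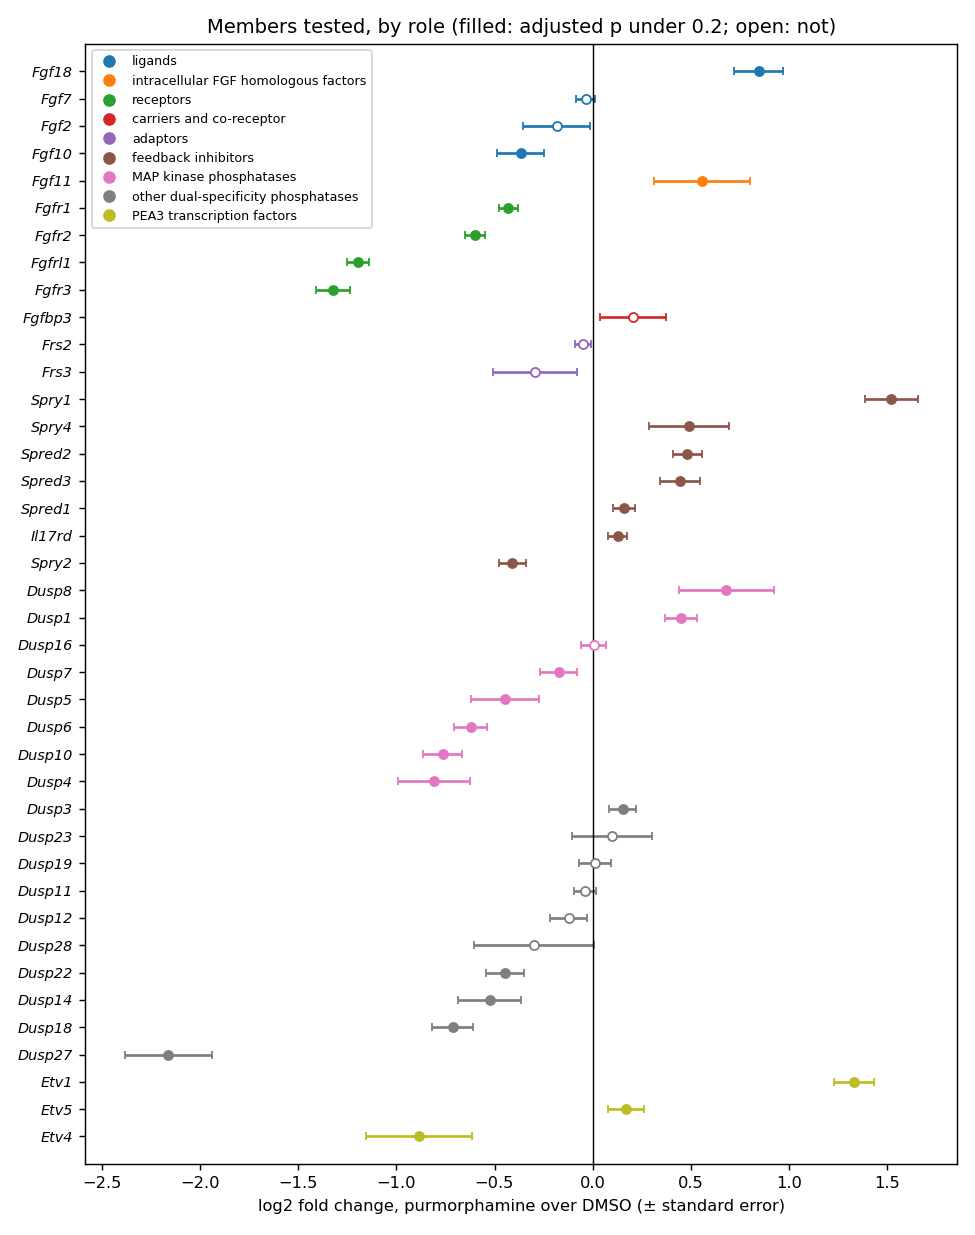
Each row is 1 of the 40 tested members, grouped by role, and the horizontal axis is its log2 fold change, purmorphamine over DMSO, with its standard error. Filled points passed an adjusted p of 0.2. All 4 receptors lie left of 0, 6 of 7 feedback inhibitors lie right of 0, and Dusp27 (-2.16) and Spry1 (1.52) are at the ends.

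Genes can be compared with each other only when reads are divided by exon length, so levels are also given as TMM-scaled reads per kilobase of exon. On that scale Fgfrl1 (1471 ± 73.4) and Fgf7 (1282 ± 25.0) were above Dusp11 (606 ± 41.0), Fgfr1 (603 ± 15.1), Fgfr2 (362 ± 0.343), Frs2 (340 ± 4.31) and Spry2 (332 ± 25.8) with vehicle. The intervals of the mean ± SD overlapped between Dusp11 and Fgfr1 and between Frs2 and Spry2, so the order within these pairs is uncertain. The length used counts every annotated exon of a gene, and the transcripts expressed may be shorter. The SD covers the spread between libraries and not that source of error, so the remaining orders between genes are uncertain too. With purmorphamine the levels per kilobase were 1250 ± 51.5 for Fgf7, 643 ± 40.0 for Fgfrl1, 590 ± 38.1 for Dusp11, 448 ± 26.5 for Fgfr1, 239 ± 14.7 for Fgfr2 and 250 ± 13.2 for Spry2. Fgf7 was then above Fgfrl1, and the intervals of Fgfrl1 and Dusp11 overlapped.

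**Figure D2:**
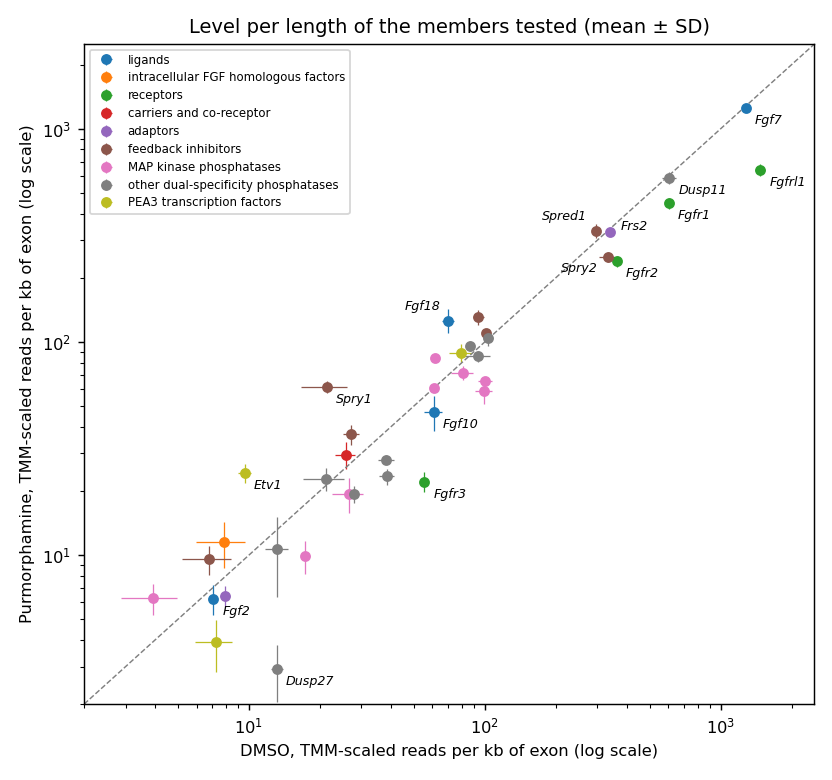
Levels of the 40 tested members in TMM-scaled reads per kilobase of exon, DMSO on the horizontal and purmorphamine on the vertical axis, both logarithmic. Points are means of the 3 DMSO and 4 purmorphamine libraries with SD, coloured by role. Fgfrl1 and Fgf7 are highest with vehicle, at 1471 and 1282, and Fgf7, at 1250, is the highest with purmorphamine.

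The receptors carry the signal across the membrane, and all 4 that could be tested fell. Among all tested genes, 31.1% were called lower and 20.4% were lower without overlap of reads. Fgfr1 (ENSMUSG00000031565, chr8:25513654-25575718, plus strand, GRCm38) is the widely expressed receptor of mesenchyme. It had 5668, 5952 and 5911 reads under DMSO and 4472, 4871, 4185 and 4408 with purmorphamine. All treated libraries lay below the vehicle range, a log2 fold change of -0.43 ± 0.0501 (SE, adjusted p = 2.07e-06), or 1.35-fold lower. Fgfr2 (ENSMUSG00000030849, chromosome 7, minus strand) encodes the receptor used by Fgf7 and Fgf10 when spliced to its epithelial form, a distinction that counts per gene do not make. It had 3665, 3692 and 3655 reads, then 2554, 2299, 2515 and 2656. The vehicle libraries lay within a narrow band well above the others, and Fgfr2 was 1.51-fold lower (log2 fold change -0.60 ± 0.0502, adjusted p = 3.47e-08). Its annotated exons share 314 bases with Ctbp2 on the same strand, so some reads there could belong to either gene.

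Fgfr3 (ENSMUSG00000054252, chr5:33721674-33737068, plus strand), known as a brake on growth-plate cartilage, had 401, 386 and 382 reads with vehicle. With purmorphamine it had 154, 184, 142 and 163. The groups were far apart, and Fgfr3 was 2.5-fold lower (log2 fold change -1.32 ± 0.0868, adjusted p = 1.38e-09). Fgfrl1 (ENSMUSG00000008090, chr5:108692382-108706924, plus strand) encodes a receptor-like protein that binds FGF but has no tyrosine kinase domain. Its reads were 3965, 3863 and 4222 with vehicle and 1925, 1821, 1646 and 1861 with purmorphamine, again without overlap. The decrease was 2.29-fold (log2 fold change -1.19 ± 0.0539, adjusted p = 1.18e-11). Each of these 4 receptors had an exact two-sided permutation p of 0.0286, the smallest that 3 against 4 libraries allow. Separation of the groups is common in these data, since reads did not overlap for 49.5% of all tested genes. Fgfr4 had at most 2 reads in any library.

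**Figure D3:**
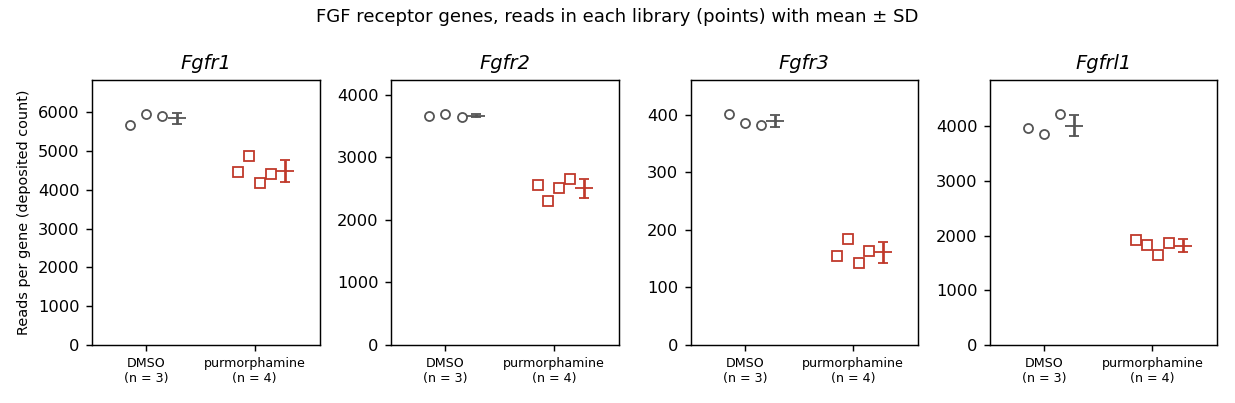
Reads per library (points) for the 4 tested receptor genes, 3 DMSO libraries and 4 purmorphamine libraries, with mean ± SD beside them and vertical axes that start at 0. No purmorphamine point reaches a DMSO point in any of the 4 panels.

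Per kilobase, the summed level of the kinase receptors Fgfr1, Fgfr2 and Fgfr3 was 1020 ± 13.8 with vehicle (1005 to 1028) and 709 ± 18.9 with purmorphamine (683 to 728). Fgfr1 made up 58.3% to 59.5% of that sum with vehicle and 61.5% to 66.5% with purmorphamine. Fgfr3 made up 5.31% to 5.69% and 2.89% to 3.47%. The share of Fgfr2 was 35.2% to 36.0% with vehicle and 34.3%, 30.02%, 35.4% and 35.4% in purmorphamine libraries 5 to 8, so the groups overlapped and library 6 was lowest. Ratios taken within a library do not depend on library scaling, and those given here were picked after the values had been seen. Reads of Fgfrl1 over Fgfr1 were 0.688 ± 0.0342 with vehicle (0.649 to 0.714) and 0.405 ± 0.0261 with purmorphamine (0.374 to 0.430). Fgfr3 over Fgfr1 was 0.0667 ± 0.00347 and 0.0358 ± 0.00188. Fgfr2 over Fgfr1 was 0.628 ± 0.0158 and 0.562 ± 0.0615, with purmorphamine library 6 lowest at 0.472 and the remaining purmorphamine libraries at 0.571 to 0.603. No ratio of the vehicle group overlapped that of the purmorphamine group.

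Cartilage markers moved alongside the receptors. All 5 chondrocyte markers fell, and their summed reads were 13058 to 13430 with vehicle and 2723 to 3471 with purmorphamine. Over all tested genes, 31.1% were called lower and 31.4% higher. Sox9, the master factor of chondrocytes, went from 5554 to 2096 reads on average, and Col2a1, the main cartilage collagen, from 7402 to 833. The summed osteoblast markers were 1457 to 1603 and 2244 to 2444 (both testable markers of 5, Runx2 and Alpl, rose), and the summed adipocyte markers were 1044 to 1078 and 779 to 901 (all 3 testable markers fell). The part of these markers in the receptor values was not tested.

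The upstream window of Fgfrl1, the receptor gene with the lowest adjusted p, is shown because, of the receptor windows available, it alone held one of the motifs searched. It covers 250 bases before the RefSeq start, chr5:108693979-108694228 of GRCm38.p6, plus strand, inside the span of the gene in GENCODE but outside its annotated exons. Capitals mark CCGGAAGT, the core recognised by Ets factors such as the PEA3 family, which begins 48 bases before the start.

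Fgfrl1: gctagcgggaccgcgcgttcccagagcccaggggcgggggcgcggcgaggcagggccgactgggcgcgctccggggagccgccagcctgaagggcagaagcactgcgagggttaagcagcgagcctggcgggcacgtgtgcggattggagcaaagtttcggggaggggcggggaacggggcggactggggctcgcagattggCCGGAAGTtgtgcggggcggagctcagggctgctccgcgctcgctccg

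Of the 4 ligands with enough reads to test, Fgf18 rose, Fgf10 fell, and Fgf2 and Fgf7, the latter the ligand with the most reads, did not pass the test. Fgf18 (ENSMUSG00000057967, chr11:33117430-33147400, minus strand), a ligand known from cartilage and bone development, had 83, 86 and 76 reads under DMSO and 141, 178, 132 and 156 with purmorphamine. The groups did not overlap, and Fgf18 was 1.80-fold higher (log2 fold change 0.85 ± 0.126, adjusted p = 3.06e-05). Per kilobase it went from 70.1 ± 4.14 to 126 ± 16.1. Its promoter is shown as that of the tested ligand that rose. The window is chr11:33147401-33147650, GRCm38.p6, minus strand, written 5′ to 3′, and it held none of the motifs searched, so it has no capitals.

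Fgf18: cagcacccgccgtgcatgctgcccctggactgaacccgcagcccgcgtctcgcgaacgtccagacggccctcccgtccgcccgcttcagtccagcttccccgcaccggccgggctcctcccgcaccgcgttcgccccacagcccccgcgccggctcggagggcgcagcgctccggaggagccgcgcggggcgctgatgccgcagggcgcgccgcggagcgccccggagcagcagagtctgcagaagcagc

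Fgf7, a ligand that mesenchyme makes for neighbouring epithelium, had 4119, 4015 and 4128 reads under DMSO and 4115, 3897, 4198 and 4257 with purmorphamine. The groups overlapped fully, with a log2 fold change of -0.037 ± 0.0462 (adjusted p = 0.545) that became 0.011 when only library totals were used for scaling. Fgf10, the related ligand of limb and lung mesenchyme, had 249, 278 and 296 reads and then 184, 281, 212 and 202. Purmorphamine library 6 lay among the vehicle values while the remaining 3 lay below them, and the log2 fold change was -0.37 ± 0.118 (adjusted p = 0.0176, exact permutation p = 0.0857). Fgf18 reads over Fgf10 reads rose from 0.300 ± 0.0392 to 0.699 ± 0.0817 within libraries. Fgf2, a ligand stored on matrix heparan sulfate, had 48, 45 and 48 reads with vehicle. With purmorphamine it had 49, 37, 48 and 37, so the groups overlapped (log2 fold change -0.18 ± 0.17, adjusted p = 0.402). Its exons share 255 bases with the transcript Gm43439 on the same strand.

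Fgf1 was below the filter, with 1, 1 and 3 reads under DMSO and 5, 9, 11 and 11 with purmorphamine. The groups did not overlap, and the ratio of reads per library was 5.40 with an exact 95% interval of 2.11 to 17.6 that covers counting error only. That ratio was computed after the reads had been seen. Of the intracellular FGF homologous factors, which are not secreted and bind sodium channels, Fgf11 rose (0.56 ± 0.243, adjusted p = 0.0707) with overlapping reads of 17 to 27 and 23 to 41. Fgf14 had 3 reads in 1 library and none in the remaining 6. The other ligands in the table, Fgf3, Fgf6, Fgf8, Fgf9, Fgf17 and Fgf23, were not testable, and all of them except Fgf17 had at most 1 read in each library. Fgf17 had 2 to 5 reads under DMSO and 2 to 11 with purmorphamine.

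The adaptors that dock to the receptors did not pass the test. Frs2, the main docking protein, had 2898, 2903 and 2948 reads under DMSO and 2870, 2949, 2959 and 2865 with purmorphamine. These overlapped, with a log2 fold change of -0.05 ± 0.0427 (adjusted p = 0.362). Frs3 had 23 to 25 and 17 to 22 reads (adjusted p = 0.299). Its exons share 69 bases on the same strand with Tomm6os, a gene of the annotated type antisense, so some reads there could belong to either gene. Fgfbp3, a secreted carrier that releases FGF from matrix, had 40 to 49 and 44 to 63 reads (adjusted p = 0.338), and Fgfbp1 had at most 1 read.

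Of the 7 testable feedback inhibitors of the Sprouty, Spred and Il17rd kind, 6 rose and Spry2 fell. Among all tested genes, 31.4% were called higher and 62.5% were called in either direction. Only Spry1 of the 7 changed by 1.5-fold or more. Spry1 (ENSMUSG00000037211, chr3:37639947-37644598, plus strand), an inhibitor of receptor tyrosine kinase signaling to Ras, had 47, 62 and 74 reads with vehicle. With purmorphamine it had 187, 172, 170 and 195. All purmorphamine libraries stood well above the vehicle ones, a 2.87-fold increase (log2 fold change 1.52 ± 0.135, adjusted p = 6.83e-08). Spry2 (ENSMUSG00000022114, chr14:105891947-105896819, minus strand), its close relative, had 708, 622 and 710 reads and then 515, 573, 505 and 524. There was no overlap in the opposite direction, and Spry2 was 1.33-fold lower (log2 fold change -0.41 ± 0.0669, adjusted p = 8.22e-05). Per kilobase, Spry2 stayed above Spry1 in both groups, at 332 ± 25.8 against 21.4 ± 4.78 with vehicle and at 250 ± 13.2 against 61.4 ± 3.96 with purmorphamine. The ratio of Spry1 to Spry2 reads within a library was 0.0901 ± 0.0207 with vehicle (0.0664 to 0.104) and 0.343 ± 0.0323 with purmorphamine (0.300 to 0.372).

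The Spry2 window is shown as the member of its family that went the other way. It is chr14:105896820-105897069, GRCm38.p6, minus strand, written 5′ to 3′, outside annotated exons, and it held none of the motifs searched.

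Spry2: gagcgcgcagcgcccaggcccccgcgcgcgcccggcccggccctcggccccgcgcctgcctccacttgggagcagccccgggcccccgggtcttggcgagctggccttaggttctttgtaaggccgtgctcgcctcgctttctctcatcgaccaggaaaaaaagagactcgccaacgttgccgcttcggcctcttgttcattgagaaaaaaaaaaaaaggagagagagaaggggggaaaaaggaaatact

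Spry4, the third Sprouty gene detected, had 29, 26 and 40 reads under DMSO and 44, 37, 53 and 50 with purmorphamine. One vehicle library, number 4, lay inside the purmorphamine range. The log2 fold change was 0.49 ± 0.202 (adjusted p = 0.0562), and without DMSO replicate 3 it was 0.36 with an adjusted p of 0.218. Spred proteins hold back Ras by bringing neurofibromin to the membrane. Spred1 had 2008, 2019 and 1918 reads and then 2271, 2082, 2447 and 2342, which was a small rise of 1.12-fold (adjusted p = 0.0258, exact permutation p = 0.114). Spred2 had 412, 454 and 412 reads and then 565, 594, 613 and 685. Its groups were well separated, with a 1.40-fold increase (log2 fold change 0.48 ± 0.0731, adjusted p = 3.85e-05). Spred3 rose to a similar extent (1.36-fold, adjusted p = 0.0019), from 150 to 175 reads to 213 to 267. Il17rd, also called Sef, a membrane protein that restrains FGF receptors and ERK, had 1074, 1101 and 1092 reads under DMSO and 1251, 1276, 1208 and 1183 with purmorphamine. The groups did not overlap in reads, yet the change was only 1.09-fold (log2 fold change 0.13 ± 0.048, adjusted p = 0.0374, exact permutation p = 0.0571).

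The PEA3 factors, which are Ets family proteins induced by FGF in many tissues, moved in different directions. Etv1 (ENSMUSG00000004151, chr12:38779380-38870484, plus strand) had 130, 131 and 116 reads under DMSO and 286, 325, 329 and 368 with purmorphamine. The groups were far apart and Etv1 was 2.52-fold higher (log2 fold change 1.33 ± 0.102, adjusted p = 1.05e-08). Etv4 had 22, 26 and 18 reads and then 12, 10, 17 and 10. All purmorphamine libraries were lower, though by few reads, with a log2 fold change of -0.88 ± 0.27 (adjusted p = 0.0129, exact permutation p = 0.0571). Etv5 had 305, 293 and 359 reads and then 358, 352, 348 and 424. Vehicle library 4 and the purmorphamine libraries overlapped, and purmorphamine library 8 lay apart from the rest of its group. The log2 fold change of Etv5 was 0.17 ± 0.0909 (adjusted p = 0.142), and 0.10 (adjusted p = 0.367) without that library. It did not pass without DMSO replicate 2 (adjusted p = 0.316) or DMSO replicate 3 (adjusted p = 0.437) either. The ratio of Etv1 to Etv5 reads rose from 0.399 ± 0.0664 (0.323 to 0.447) to 0.884 ± 0.0654 (0.799 to 0.945).

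**Figure D4:**
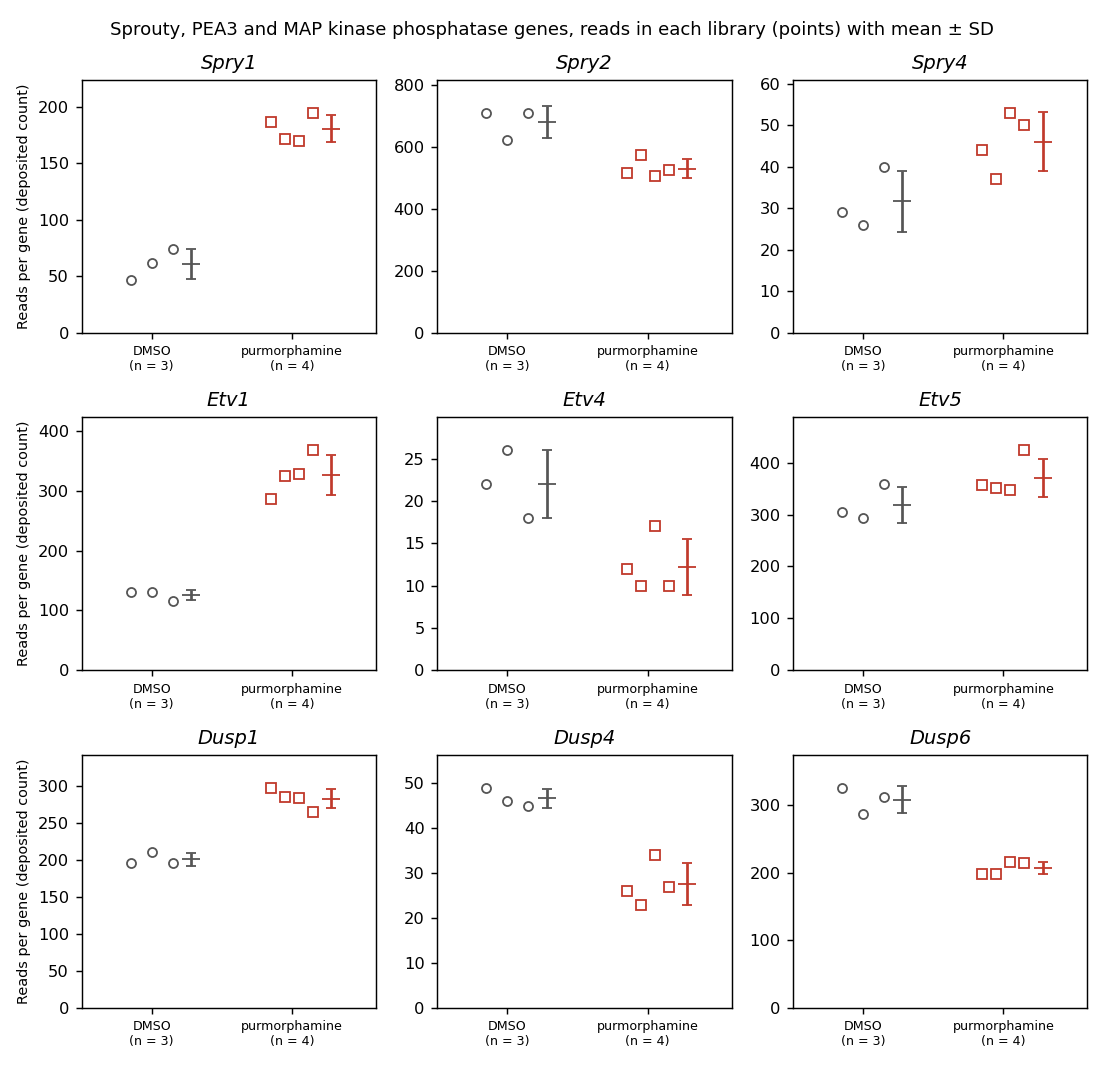
Reads per library (points) for 3 Sprouty genes, the 3 PEA3 genes and 3 MAP kinase phosphatase genes, with mean ± SD, for 3 DMSO and 4 purmorphamine libraries on axes that start at 0. Within each family some genes rise (Spry1, Etv1, Dusp1) and some fall (Spry2, Etv4, Dusp4, Dusp6).

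MAP kinase phosphatases remove phosphate from ERK, JNK or p38. Of the 8 that were testable, 5 fell, 2 rose, and Dusp16 did not pass the test. Among all tested genes, 31.1% were called lower and 31.4% higher. A change of at least 1.5-fold was found for 3 of the lower and 1 of the higher phosphatases. Dusp6 (ENSMUSG00000019960, chr10:99263231-99267489, plus strand), the cytoplasmic phosphatase specific for ERK and a standard FGF response gene, had 326, 287 and 313 reads with vehicle. With purmorphamine it had 199, 199, 216 and 215. The groups did not overlap, and Dusp6 was 1.54-fold lower (log2 fold change -0.62 ± 0.0824, adjusted p = 8.98e-06). Dusp4, a nuclear phosphatase also induced by ERK, had 49, 46 and 45 reads and then 26, 23, 34 and 27. It too was lower in every purmorphamine library, by 1.75-fold (log2 fold change -0.81 ± 0.183, adjusted p = 0.00161). Dusp10, which prefers JNK and p38, had 269, 316 and 306 reads and then 176, 212, 156 and 179. Its groups were separate and it was 1.70-fold lower (log2 fold change -0.76 ± 0.0996, adjusted p = 7.6e-06). Dusp5, specific for ERK in the nucleus, and Dusp7, its cytoplasmic counterpart, had lower but overlapping reads (log2 fold changes -0.45 and -0.17, adjusted p = 0.0429 and 0.139).

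Dusp1, an immediate-early phosphatase of the nucleus, went the other way. It had 195, 210 and 196 reads under DMSO and 297, 285, 283 and 265 with purmorphamine. No library overlapped, and Dusp1 was 1.36-fold higher (log2 fold change 0.45 ± 0.0817, adjusted p = 0.000238). The ratio of Dusp1 to Dusp6 reads rose from 0.652 ± 0.0704 to 1.37 ± 0.117. Dusp8, which acts on JNK and p38, rose from 13 to 22 reads to 25 to 37 (adjusted p = 0.0277). Dusp2, which acts in the nucleus of stimulated immune cells, and Dusp9, a placental phosphatase, had at most 3 reads in any library.

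The windows of Dusp6 and Dusp1 are set side by side because these genes differed in direction. For Dusp6 the 250 upstream bases are given, chr10:99262981-99263230, GRCm38.p6, plus strand, outside annotated exons, with no match to the motifs searched. For Dusp1 only 28 bases are given, chr17:26508598-26508625, minus strand, written 5′ to 3′. Capitals mark TGACGTCA, the cAMP response element (CRE), which begins 143 bases before the start.

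Dusp6: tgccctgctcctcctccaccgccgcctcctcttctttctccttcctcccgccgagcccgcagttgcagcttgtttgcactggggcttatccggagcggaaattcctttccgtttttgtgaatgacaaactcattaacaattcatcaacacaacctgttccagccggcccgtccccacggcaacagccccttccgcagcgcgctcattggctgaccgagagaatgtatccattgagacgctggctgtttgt
Dusp1: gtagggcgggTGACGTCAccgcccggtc

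Of the remaining dual-specificity phosphatases, 10 were testable, of which 4 fell and Dusp3 rose. Thus 5 of 10 were called, beside 62.5% of all genes. Dusp27 (chr1:166098148-166127922, minus strand), studied mainly in muscle, had 50, 56 and 51 reads under DMSO and 14, 16, 10 and 8 with purmorphamine. Among the 40 tested members it had the largest change, 4.47-fold lower, and the groups were far apart (log2 fold change -2.16 ± 0.221, adjusted p = 4.14e-07). Dusp18 had 167, 168 and 189 reads and then 100, 104, 117 and 119. All purmorphamine libraries were lower, by 1.64-fold (log2 fold change -0.71 ± 0.106, adjusted p = 3.11e-05). Dusp14 and Dusp22 were lower too (log2 fold changes -0.53 and -0.45, adjusted p = 0.0119 and 0.00105), and Dusp3 was slightly higher (0.15, adjusted p = 0.0753). Dusp11, Dusp12, Dusp19, Dusp23 and Dusp28 did not pass the test, with adjusted p values of 0.302 to 0.91. Dusp13, Dusp15 and Dusp26 had at most 8 reads. Over the whole family of symbols, 15 of the 55 members were not testable. The highest count of any of them in a library was 11, and 10 of them had at most 3 reads in every library.

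Other genes of the pathway were followed in 5 lists, each read beside the 62.5% of all tested genes that were called. Among partners of FGF receptors at the cell surface, 3 of 6 testable genes rose and 3 fell. Flrt2, a membrane protein of a family that binds FGF receptors, rose from 1964 ± 31.9 to 6772 ± 174 reads (log2 fold change 1.74, adjusted p = 3.27e-14). L1cam, an adhesion molecule that can engage the receptors, fell from 563 ± 45.2 to 126 ± 27.5 (-2.21, adjusted p = 6.55e-11). Ncam1 rose (0.53) and Cdh2, N-cadherin, fell (-0.31).

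Heparan sulfate is needed for FGF to bind its receptors, and 6 of 21 testable carriers and enzymes rose while 9 fell. With library totals alone as scaling the split was 9 and 8. Among the cell-surface carriers, Gpc4 rose from 2204 ± 59.2 to 4739 ± 109 reads (1.06, adjusted p = 6.22e-12) and Gpc6 fell from 4716 ± 41.2 to 1640 ± 140 (-1.57, adjusted p = 8.93e-13). Sulf2, an extracellular enzyme that removes sulfate from heparan sulfate, rose from 1101 ± 69.9 to 3468 ± 555 (1.61, adjusted p = 2.62e-10). Hs6st1, which adds sulfate at the position that Sulf2 clears, fell from 975 ± 29.0 to 612 ± 24.6 (-0.72, adjusted p = 8.61e-09). Their relatives Hs6st2 (-0.036, adjusted p = 0.669) and Sulf1 (0.050, adjusted p = 0.411) did not pass the test. Per kilobase with vehicle, Hs6st2 was at 1164 ± 24.6 and Hs6st1 at 179 ± 6.07. Hs6st2 and Sulf1 were named after their values had been seen.

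In the cascade from the receptor to ERK, 9 of 25 testable genes rose and 7 fell, a split that became 11 and 3 with library totals alone. Among called genes averaging 50 reads or more in a group, the 4 with the largest changes all rose, while Rps6ka1, a less abundant kinase transcript named after its values were seen, fell (-1.11, adjusted p = 0.00165). The 4 were Ksr1, a scaffold for Raf, MEK and ERK (1.33, adjusted p = 3.53e-09), Gab2, a docking protein (1.02, adjusted p = 1.44e-08), Nf1, neurofibromin, which switches Ras off (0.86, adjusted p = 1.68e-08), and Rps6ka2, a kinase activated by ERK (0.84, adjusted p = 5.84e-06).

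Among other MAP kinases and their activators, 2 of 12 testable genes rose and 3 fell, or 4 and 3 with library totals alone. Mapk12, a p38 kinase, rose (0.78) and Mapk6, an atypical relative of ERK, fell from 1946 ± 45.0 to 1374 ± 70.7 reads (-0.55, adjusted p = 6.76e-08). Map2k6, an activator of p38, fell (-0.38, adjusted p = 0.00157), and Map2k7, an activator of JNK, rose (0.23, adjusted p = 0.00594). Of 15 testable genes that ERK induces in many cells, 6 rose and 6 fell. Ccnd1, cyclin D, rose from 2858 ± 119 to 9474 ± 369 reads (1.68, adjusted p = 1.1e-13). Hbegf, an EGF receptor ligand, fell from 68.0 ± 7.21 to 24.0 ± 2.16 (-1.54, adjusted p = 9.84e-07), Errfi1, an inhibitor of the EGF receptor, from 636 ± 13.5 to 228 ± 19.1 (-1.53, adjusted p = 2.07e-11), and Myc from 379 ± 31.8 to 154 ± 15.3 (-1.35, adjusted p = 2.65e-09).

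**Figure D5:**
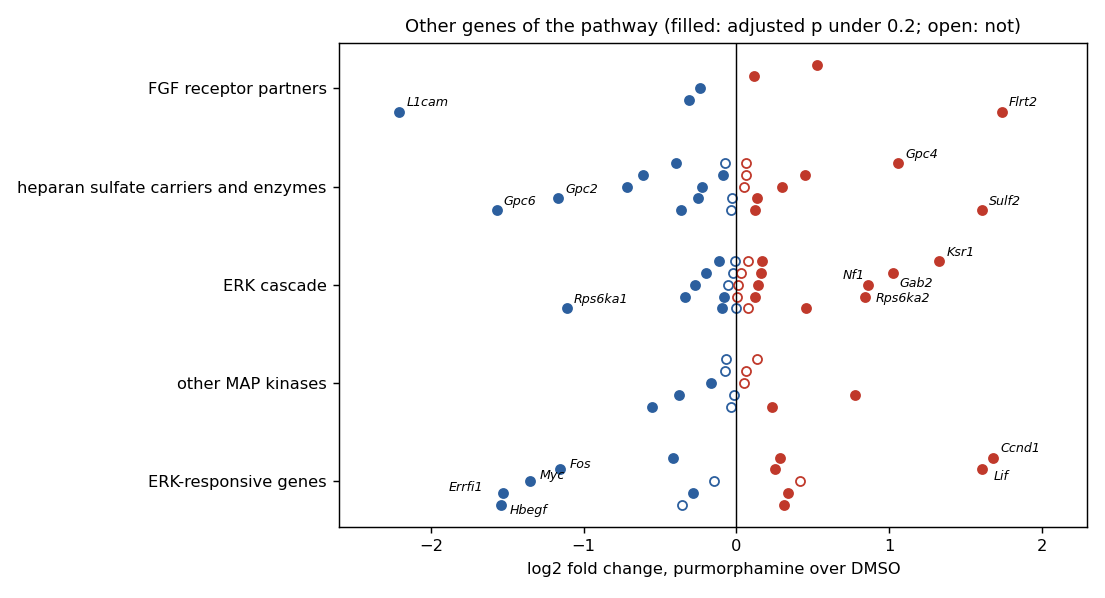
Log2 fold changes, purmorphamine over DMSO, of the testable genes of the 5 other pathway lists, with each list's name on the vertical axis and filled points for an adjusted p under 0.2. Flrt2 and Ccnd1 lie farthest right, at 1.74 and 1.68, and L1cam lies farthest left at -2.21.

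Upstream windows of 250 bases were available for 44 of the 55 members, 50 windows in all. GACCACCCA, the core bound by Gli factors, was searched on both strands (reverse complement TGGGTGGTC) and lay in 0 member windows and in 0.225% of all windows. CCGGAAGT (reverse complement ACTTCCGG) lay in 2 member windows, those of Fgfrl1 and Frs2, and in 2.88% of all. The CRE, TGACGTCA, reads the same on both strands and lay in 2, those of Dusp1 and Dusp8, and in 1.55% of all. A match of letters is a description of the window and does not show that a factor binds there.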

How the data were processed

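RNA from 7 C3H10T1/2 libraries was sequenced as single reads of 100 bases. The authors resampled reads to equalize the libraries, counted sense-strand reads per gene and deposited the resulting counts. The submitters' processing notes name STAR 2.5.3a and mm9, and the annotation was not given in the sources used here. Listed gene intervals were padded (10490 were exactly 400 bases longer than in GENCODE), so Ensembl identifiers were used to look up positions and exon lengths in GENCODE M21 (GRCm38), with a match for 17632 genes (95.5%) and all 55 members. Promoters came from RefSeq. Counts were scaled by TMM, filtered (filterByExpr, minimum count 10, minimum total 15) and fitted with the edgeR 4.0.16 quasi-likelihood test in R 4.3.3. The adjusted p limit of 0.2 was the one used in the study. DESeq2 1.42.0, limma-voom (limma 3.58.1), other filters, library totals alone and each library left out were alternatives. Single genes were also tested with an exact two-sided permutation test over 35 assignments of log2(TMM-scaled count + 1). Counting intervals cover counting error only.

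Full values were given for members called at 1.5-fold or more with a mean of at least 50 reads in a group and for 18 further members fixed by name, some of which also met that limit. From each other list the 4 called genes with the largest changes and a mean of at least 50 reads were named. Hs6st2, Sulf1 and Rps6ka1 were named in addition, after their values had been seen. Members and lists were chosen with earlier results of these data known. Dusp21, Fgf4, Fgf5, Fgf12, Fgf13, Fgf15, Fgf16, Fgf20, Fgf21, Fgf22 and Klb were not analysed here. One result of the ERK cascade list is not reported here.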

Additional observations from a re-analysis of the deposited data

Results flagged for a closer look

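Among 24 members whose reads were examined for a library lying apart from its group, 1 was found, and chance alone would give about 1.2. In the purmorphamine group, Etv5 had 348, 352, 358 and 424 reads. After TMM scaling of these reads, the gap between library 8 and its nearest neighbour was 0.895 of the group's range. That is above Dixon's limit at the 95% level for 4 samples. Groups of 3 were not examined.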

How the results depend on the processing

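No paired analysis was run because the labels do not pair vehicle libraries 2 to 4 with purmorphamine libraries 5 to 8. The counts of 13 higher and 16 lower members stayed between 12 and 14 and between 15 and 16 when any library was left out, and at 13 and 15 with library totals alone. Requiring 1.5-fold left 4 higher and 9 lower. Past that limit there were 5 higher and 7 lower members with library totals alone. With any library left out there were 4 to 6 higher and 8 to 9 lower. With library totals alone, 3 genes of the ERK cascade were lower (7 with TMM) and 4 other MAP kinase genes were higher (2 with TMM), and the change of Fgf7 reversed sign, to 0.011 (adjusted p = 0.863) from -0.037. The median log2 fold change over all genes was 0.0513 with library totals alone and 0.0038 with TMM. The part of this shift in those changes was not tested. At an adjusted p under 0.05, 9 members were higher and 15 lower, and 4 genes of the ERK cascade were lower. Of 311 comparisons of a named member under an alternative, 304 kept direction and call. Apart from Fgf7, the exceptions were the calls of Spry4 and Etv5, lost in 6 comparisons. Few reads limit Etv4, Fgf2, Spry4 and the 15 members not tested.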
